A study of Mus musculus with 23 samples.

Results

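The genes described here are 44 keratins, cell junction genes and epithelial regulators, chosen by name from the 24940 gene symbols that both expression tables of the study list. They fall into 6 groups by role: 5 stratified and basal keratins, 6 simple epithelial keratins, 11 genes of adhesion and tight junctions, 6 desmosome genes, 9 regulators of transcription and splicing, and 7 membrane proteases, protease inhibitors and apical proteins. A symbol with several transcripts stands for the one with the largest mean, of counts in tumors and of RPKM in CAFs, so the transcript can differ.

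The study grew subcutaneous tumors from 500000 cancer cells injected into the flank of adult female mice, and sequenced RNA of tumor fragments and of sorted fibroblasts. The mice of the models used here were C57BL/6, and neither they nor the lines carried an allele or received a treatment that the labels name. The 15 tumor libraries came from 5 models with 3 libraries each: B16 (B16-F10, a melanoma line), EO771 (EO771.LMB, breast carcinoma), LL2 (lung carcinoma), MC38 (colon carcinoma) and Pan02 (pancreatic ductal carcinoma). The titles of the 3 Pan02 tumor samples read Pan01, whereas their cell line label names Pan02, which was followed here, and the columns of the table name PANO2. The 8 libraries of cancer-associated fibroblasts (CAFs), 2 each of EO771, LL2, MC38 and Pan02, held cells left after CD45+ cells had been removed that were then sorted for fibroblast activation protein (FAP), each library from its own round of sorting. As models, the tumors have 3 limits: each stands for 1 line, the lines grew under the skin rather than in the organ they came from, and a tumor fragment also holds host cells. Mice with ulcerated tumors were not analyzed by the study. The labels do not say whether replicates came from separate mice, so p-values measure the spread between these libraries, which may in part be technical.

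Epithelial cells hold keratin filaments built from pairs of a type I and a type II chain. Simple, single-layered epithelia use Krt8 (type II) with Krt18 (type I), together with Krt7, Krt19, Krt20 or Krt23, whereas the basal layer of stratified epithelia uses Krt5 with Krt14 and Krt15, and Krt6a and Krt17 are known from stressed epidermis and skin appendages. E-cadherin (Cdh1) and Epcam hold epithelial cells together, claudins and occludin (Ocln) seal the tight junction, and desmosomes anchor keratin filaments at the membrane through plakoglobin (Jup), desmoplakin (Dsp) and plakophilins (Pkp1, Pkp3). Carcinoma cells often lose part of this program, and factors of the Zeb and Snail families are known to repress it by binding the E-box CACCTG.

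The sequences just before the start of 6 of these genes are shown because the results below turn on their levels: Krt8 and Krt18, the keratin pair whose levels parted in EO771 tumors; Krt7, Cldn2 and Tspan8, which were high in Pan02 tumors; and Epcam, the usual surface marker of carcinoma cells, which was low in every model. Each run is the 250 bases before the annotated start, 5′ to 3′ on the strand of the gene, from RefSeq on GRCm38.p6 (the build named mm10). They lie at chr15:102004343-102004592 on the minus strand (Krt8) and, on the plus strand, at chr15:102027966-102028215 (Krt18), chr15:101412153-101412402 (Krt7), chr17:87635729-87635978 (Epcam), chrX:139800558-139800807 (Cldn2) and chr10:115817034-115817283 (Tspan8). Capitals mark CACCTG on either strand, written CAGGTG where it is on the other strand.
Krt8: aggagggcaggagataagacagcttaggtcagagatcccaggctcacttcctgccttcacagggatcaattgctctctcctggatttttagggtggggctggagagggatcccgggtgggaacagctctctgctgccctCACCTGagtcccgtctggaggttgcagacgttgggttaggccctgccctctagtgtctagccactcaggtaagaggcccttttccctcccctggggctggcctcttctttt
Krt18: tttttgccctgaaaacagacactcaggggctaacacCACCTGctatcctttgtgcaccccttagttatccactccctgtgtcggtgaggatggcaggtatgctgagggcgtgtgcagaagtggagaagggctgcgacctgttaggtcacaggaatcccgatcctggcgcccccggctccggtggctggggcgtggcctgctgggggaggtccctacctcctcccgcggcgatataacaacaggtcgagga
Krt7: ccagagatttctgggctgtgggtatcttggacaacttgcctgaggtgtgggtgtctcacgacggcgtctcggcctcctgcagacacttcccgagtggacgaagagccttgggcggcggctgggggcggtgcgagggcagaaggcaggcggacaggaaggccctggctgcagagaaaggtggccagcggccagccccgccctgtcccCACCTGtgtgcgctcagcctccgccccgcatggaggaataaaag
Epcam: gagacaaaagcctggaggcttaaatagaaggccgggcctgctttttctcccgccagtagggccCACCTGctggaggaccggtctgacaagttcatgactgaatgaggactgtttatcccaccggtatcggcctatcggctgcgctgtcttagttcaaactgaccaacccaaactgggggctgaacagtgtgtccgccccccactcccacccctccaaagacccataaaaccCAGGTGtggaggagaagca
Cldn2: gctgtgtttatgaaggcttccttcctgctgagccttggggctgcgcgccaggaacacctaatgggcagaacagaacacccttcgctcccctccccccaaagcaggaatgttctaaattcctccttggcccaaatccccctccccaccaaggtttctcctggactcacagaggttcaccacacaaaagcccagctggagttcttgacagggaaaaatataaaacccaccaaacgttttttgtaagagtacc
Tspan8: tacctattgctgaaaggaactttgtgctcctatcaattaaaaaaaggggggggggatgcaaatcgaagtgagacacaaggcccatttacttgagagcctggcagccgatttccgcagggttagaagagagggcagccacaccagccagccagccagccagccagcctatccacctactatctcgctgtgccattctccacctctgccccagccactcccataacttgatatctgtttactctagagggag
The E-box starts 111 bases before the start of Krt8, 214 before that of Krt18, 44 before that of Krt7, and 187 and 19 before that of Epcam, and it is not in the runs of Cldn2 and Tspan8. Of the 44 genes, 28 had a promoter of this length in the RefSeq table and 16 had none there. CACCTG was in 16 of the 28 (57.1%) on either strand, against 17.2% of all 32851 promoters. The grainyhead site AACCNGGTT, also searched on both strands, was in 0 of the 28 and in 0.240% of all promoters. These are matches of letters and were not measured as binding sites.

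The level of a gene in tumors is given in CPM, the reads of the gene relative to the TMM-scaled size of its library. Library sums ran from 10035173 to 21946486 counts, so that 3 counts, the limit that a count of 0 allows, correspond to 0.144 to 0.295 CPM, which covers counting error only. In bulk RNA a lower level from fewer cells of a type and a lower level from less RNA per cell cannot be told apart.

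The summed level of the 44 genes was 61.4 to 93.3 CPM in B16 tumors, 124 to 174 CPM in MC38, 650 to 796 CPM in LL2, 1476 to 1541 CPM in EO771 and 3733 to 5139 CPM in Pan02, without overlap between any of the 5 models. Krt8 alone made up 80.7% to 81.7% of the sum in EO771 and 24.5% to 36.02% in LL2. Without Krt8 the sum was 279 to 293 CPM in EO771, below the 421 to 559 CPM of LL2, and it remained lowest in B16 (58.5 to 89.7 CPM) and highest in Pan02 (2717 to 3830.5 CPM). At least 1 CPM in all 3 tumors was reached by 8 of the 44 genes in B16, 11 in LL2, 14 in MC38, 15 in EO771 and 24 in Pan02. For 15 genes every Pan02 tumor lay above every other tumor (Krt7, Krt18, Krt19, Cdh1, Cldn2, Cldn3, Cldn7, Jup, Esrp2, Ehf, Elf3, Prss8, Spint1, Spint2 and Tspan8). The same held for Krt17, Pkp3 and Ovol1 in EO771, for Cldn6, Cldn18 and Ovol2 in MC38, for Elf5 in B16 and for none in LL2. Cldn18 and Elf5 were too low to test. For Cldn18 the lowest MC38 tumor was at 0.265 CPM and the highest EO771 tumor at 0.255 CPM, near the limit of depth. The shares of all genes that reached 1 CPM or lay apart in these ways were not counted, so whether these counts are unusual cannot be said. By another measure, the tests given below called 18.8% of all tested genes higher in Pan02 and 9.71% in EO771. They called 11.2% higher in MC38, 13.1% in B16 and 8.51% in LL2. The heatmap of the 44 genes in 15 tumors shows these blocks.

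**Figure D1:**
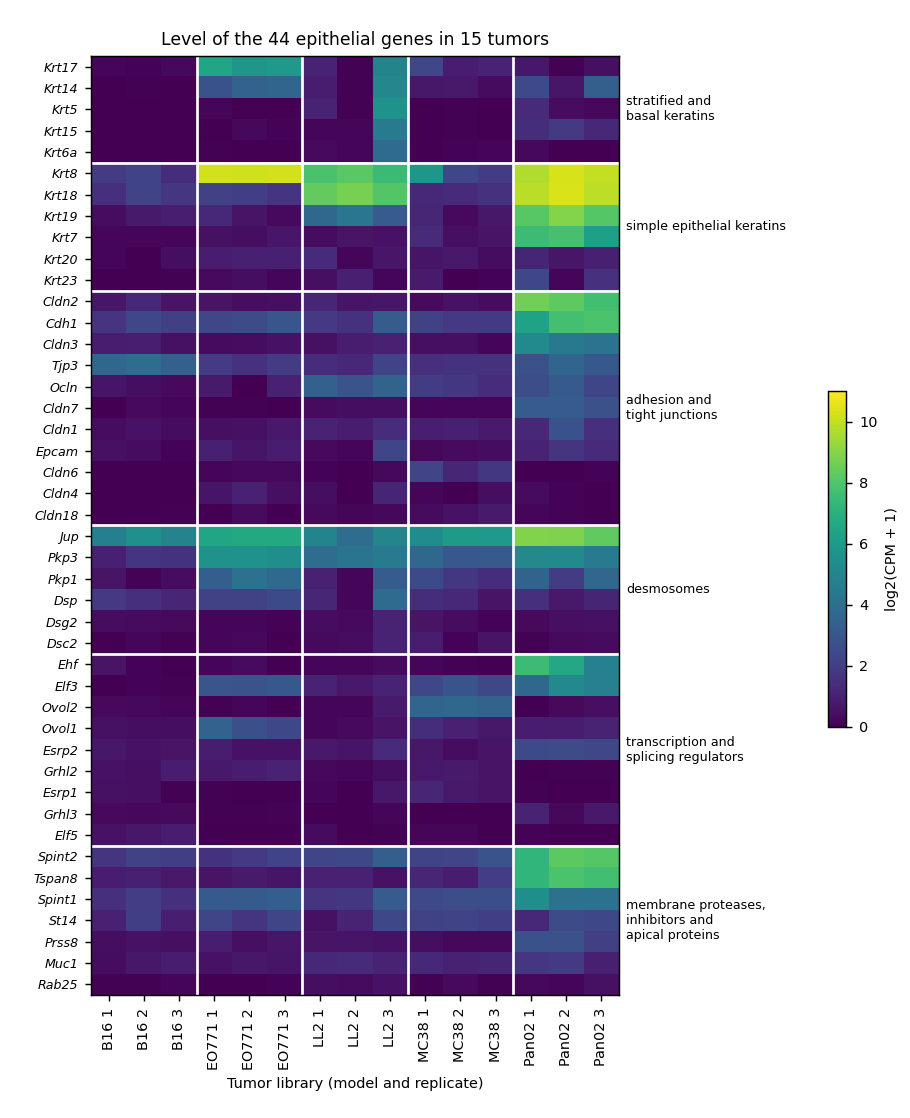
Level of each of the 44 genes (rows, grouped by role) in each of the 15 tumors (columns), as log2(CPM + 1). The simple keratins, junction genes and apical genes are brightest in the 3 Pan02 columns, Krt8 is bright in EO771 without Krt18, and the basal keratins stand out in LL2 tumor 3.

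Of the 44 genes, 36 passed the filter on low counts and were tested, and 8 did not (Krt6a, Cldn4, Cldn18, Dsg2, Dsc2, Grhl3, Elf5 and Rab25). The tested ones are therefore those with reads in at least 1 model. A gene could pass through the tumors of 1 model alone, which set in advance the direction of its change there. This held at least for Ehf, Krt7, Cldn7 and Prss8 in Pan02, and for Cldn6 and Ovol2 in MC38. With edgeR's quasi-likelihood test, an adjusted p under 0.05 was reached across the 5 models by 33 of the 36 genes, but Krt20, Dsp and St14 did not reach it. Since 91.1% of all 15722 tested genes differed in this test, that count is close to the background. Among the 4 models other than Pan02, 24 of the 36 differed, against 83.0% of all tested genes.

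Pan02 tumors were next set against the mean of the other 4 models, a gene being called where its adjusted p was under 0.05 and its log2 change 1 or more in size. Of the 36 tested genes, 25 were higher, against 18.8% of all tested genes, and 1 was lower (Grhl2), against 7.93%. The 25 include Ehf, Krt7, Cldn7 and Prss8, which passed the filter only through Pan02, so their direction was fixed beforehand. The median log2 fold change was 2.61 over the 36 genes, or 2.38 with the 3 genes that were at 0 in a whole model (Krt5, Krt15 and Cldn6) set at 3 counts, beside 0.05 over all tested genes. By role, the higher genes were 5 of 6 simple keratins, 8 of 9 adhesion and tight junction genes, 3 of 4 desmosome genes, 5 of 6 protease, inhibitor and apical genes, 3 of 7 regulators and 1 of 4 basal keratins. The largest changes were those of Ehf (9.65 ± 0.49, SE), Cldn2 (9.13 ± 0.22) and Krt7 (8.68 ± 0.30) on the log2 scale, Ehf falling to 8.91 ± 0.46 without Pan02 tumor 1. The plot of the Pan02 contrast gives all 36.

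**Figure D2:**
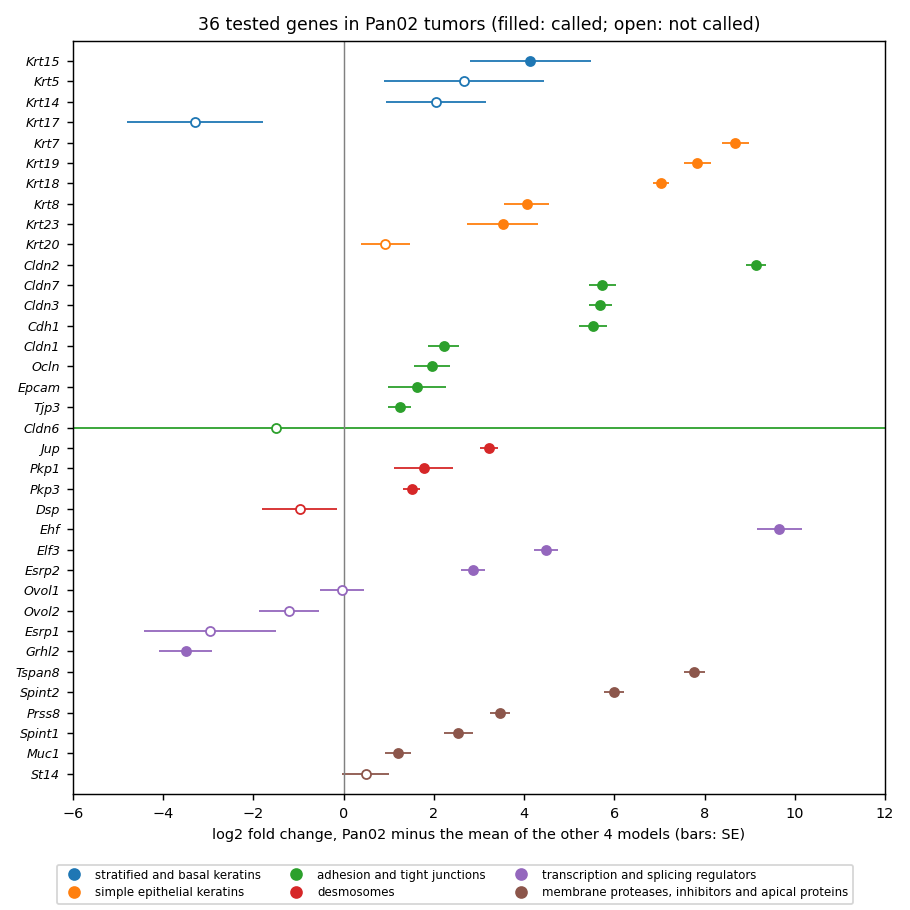
Log2 fold change of the 36 tested genes in Pan02 tumors against the mean of the other 4 models (x axis, with SE bars), colored by role and filled where called. The called genes lie between 1.20 and 9.65 except Grhl2 at -3.50, and the SE of Cldn6 (21.50) runs past both ends of the axis.

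The simple epithelial keratins had the highest counts of the set. Krt8 reached 1228, 1197 and 1259.5 CPM in the EO771 tumors and 826, 1309 and 1016 CPM in the Pan02 tumors, which overlapped. It was 229, 287 and 182 CPM in LL2, 54.8, 4.17 and 2.84 CPM in MC38, and 2.90, 3.57 and 1.65 CPM in B16. LL2 thus lay between, without overlap on either side, whereas the B16 and MC38 tumors overlapped. Krt18, the usual partner, was 924, 1333 and 950.1 CPM in Pan02 and 326, 431 and 266 CPM in LL2, and it did not exceed 3.79 CPM in any B16, EO771 or MC38 tumor. Krt18 was 7.03 ± 0.17 higher in Pan02 and 4.97 ± 0.17 higher in LL2 than in the mean of the other models (log2, SE, edgeR adjusted p = 1.7e-11 and 4.3e-10).

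In EO771 tumors Krt8 was therefore abundant and Krt18 was not. Krt18 was 3.55, 3.06 and 2.14 CPM there, a fall of 3.58 ± 0.26 on the log2 scale (edgeR adjusted p = 1.5e-07), and Krt8 was 4.34 ± 0.50 higher (adjusted p = 8.5e-06). Per base of transcript, Krt8 exceeded Krt18 268, 304 and 457 times in the EO771 tumors. The same ratio was 0.517 to 0.544 in LL2, 0.693 to 0.829 in Pan02, 0.550 to 1.27 in B16, and 31.5, 2.10 and 1.07 in the MC38 tumors. The log2 ratio was 8.38 ± 0.40 (SD, n = 3) in EO771 against 0.10 ± 1.65 (SD, n = 12) in the other tumors, a difference of 8.28. The ratio was chosen after the values were seen and is given as a description, without a test. Of the 50-base windows of the Krt8 transcript, 26.9% also occur in the pseudogene Krt8-ps, so part of the Krt8 reads could be split or misplaced, whereas 0.720% of the Krt18 windows occur elsewhere. Other type I chains differed in EO771. Krt19 was at 1.40, 0.509 and 0.218 CPM, whereas Krt17 was at 55.0 to 89.6 CPM and Krt14 at 5.85 to 10.8 CPM. Krt16, also type I and high in EO771, is given below. Which chains pair with Krt8 there was not tested.

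Krt8 differed among the MC38 tumors, with 54.8 CPM in tumor 1 against 4.17 and 2.84 CPM in tumors 2 and 3. Krt17 (4.28 against 0.770 and 1.06 CPM) and Krt7 (1.49 against 0.372 and 0.479 CPM) were also highest in tumor 1. The same library was also high in some genes that were otherwise high in EO771. Of 12 genes at 30 CPM or more in EO771 and under 1 in 50 of that level in every B16, LL2 and Pan02 tumor, a choice made after the values were seen, 5 were over 3 times higher in MC38 tumor 1 than in either other MC38 tumor, at 4.64% to 6.71% of the EO771 mean. Esx1, a homeobox gene of the placenta, was 74.5 CPM there and 10.7 and 5.82 CPM in tumors 2 and 3, and Hand1 was 8.40, 0.943 and 0.479 CPM. Krt8 in MC38 tumor 1 was 4.46% of the EO771 mean. The other 7 of the 12 genes were at most 2.89 times higher in tumor 1. The cause was not tested. Against the mean of the other models Krt8 fell by 3.02 ± 0.72 on the log2 scale in MC38, and by 5.56 ± 0.34 without tumor 1, and the rise of Krt8 in EO771 was 4.97 ± 0.18 without it. The changes of Krt8 in Pan02 (4.05 ± 0.50) and in B16 (-6.71 ± 0.93) were 4.69 ± 0.18 and -6.07 ± 0.30 without it.

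Krt19 and Krt7, the keratins of ducts and other simple epithelia, marked Pan02. Krt19 was 282, 489.6 and 277 CPM in the Pan02 tumors and 11.9, 19.2 and 7.92 CPM in LL2, and it stayed at or under 1.40 CPM in the other 9 tumors. Krt7 was 186, 219 and 74.7 CPM in Pan02 and at most 1.49 CPM elsewhere. Both rose without overlap, by 7.84 ± 0.31 (Krt19) and 8.68 ± 0.30 (Krt7) on the log2 scale. Krt23 (4.03, 0.135 and 1.98 CPM in Pan02) was also called higher, by 3.52 ± 0.78, but Pan02 tumor 2 lay within the range of the others, and the change was 2.55 ± 0.92 without Pan02 tumor 1 and 4.28 ± 0.74 without MC38 tumor 1. Krt20, a keratin of the intestinal lining, was at or under 1.56 CPM in all tumors, the colon line MC38 included (0.554, 0.695 and 0.274 CPM), and was not called in Pan02.

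The basal keratins followed another order. Krt17 was 89.6, 55.0 and 61.4 CPM in EO771, 6.06 ± 0.82 above the mean of the other models (log2, edgeR adjusted p = 3.7e-05), or 7.13 ± 0.49 without LL2 tumor 3. Outside EO771 only LL2 tumor 3 (29.9 CPM) and MC38 tumor 1 (4.28 CPM) exceeded 1.10 CPM. Krt14 was 5.85, 10.0 and 10.8 CPM in EO771, 4.40, 0.607 and 9.06 CPM in Pan02, and at or under 0.695 CPM in B16 and MC38. Its rise in EO771 (3.20 ± 1.05, adjusted p = 0.020) lost the call without EO771 tumor 2 (3.11 ± 1.21) or EO771 tumor 3 (3.03 ± 1.21), and was 4.39 ± 0.62 without LL2 tumor 3. About 13.9% of the Krt14 windows also occur in Krt16 or Krt17. Krt15 was 1.69, 2.70 and 1.41 CPM in Pan02, the 1 basal keratin called there (adjusted p = 0.019), a call lost without Pan02 tumor 2 (adjusted p = 0.058). Its change of 4.14 ± 1.35 was 5.53 ± 0.43 without LL2 tumor 3.

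In LL2 the high values of the basal keratins came from tumor 3. Krt5 was 1.09, 0.0522 and 48.3 CPM, Krt14 was 0.815, 0.0522 and 33.4 CPM, and Krt15 was 0.102, 0.156 and 21.8 CPM in LL2 tumors 1, 2 and 3. Krt6a (0.204, 0.130 and 13.6 CPM), Krt17 (1.09, 0.0522 and 29.9 CPM), Dsp (1.26, 0.104 and 13.5 CPM) and Epcam (0.204, 0.156 and 3.88 CPM) had the same form. Tumor 3 was the highest of the 15 tumors for 11 of the 44 genes. These were Krt5, Krt6a, Krt14, Krt15, Dsp, Epcam, Cldn4, Ocln, Dsg2, Dsc2 and Rab25. For how large a share of all genes it was highest was not counted. The same library held 16.4 CPM of Krt79 and 3.66 CPM of Dsc3, which mark the hair canal and the lower epidermis and were at most 0.102 and 0.306 CPM in the other LL2 tumors, whereas the late epidermal genes Krt1 and Ivl were at 0.0626 CPM. The 14 epidermal genes listed summed to 10.2 to 19.03 CPM in LL2, and the 10 hair follicle genes listed to 1.22 to 47.7 CPM. Their part in the result was not tested.

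Against the mean of the other models, 7 of the 36 genes were called higher in LL2 (8.51% of all tested genes) and 8 lower (8.29%). The higher ones were the 4 tested basal keratins with Krt18, Krt19 and Ocln. Without tumor 3, 4 were higher and 13 lower of 38 tested. Krt14 went from 3.64 ± 1.02 to -1.14 ± 1.27, Krt17 from 2.64 ± 0.91 to -1.63 ± 0.89, and Krt15 from 6.53 ± 1.17 to 0.97 ± 0.54, and all 3 calls were lost, that of Krt17 also without B16 tumor 2 or Pan02 tumor 2. Krt5 went from 8.29 ± 1.29 to 3.40 ± 1.13 and remained called (adjusted p = 0.00034 and 0.039). Krt5 and Krt15 had 0 counts in all B16 tumors, so that their fitted values depend on the prior count. The 4.23 ± 0.83 of Krt14 and 3.23 ± 0.72 of Krt17 without LL2 tumor 2 rest on tumor 3 as well. Lower in LL2 by the largest amounts were Ovol1 (-2.15 ± 0.45, or -2.80 ± 0.53 without tumor 3), Tspan8 (-2.10 ± 0.37) and Krt7 (-1.92 ± 0.56).

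**Figure D3:**
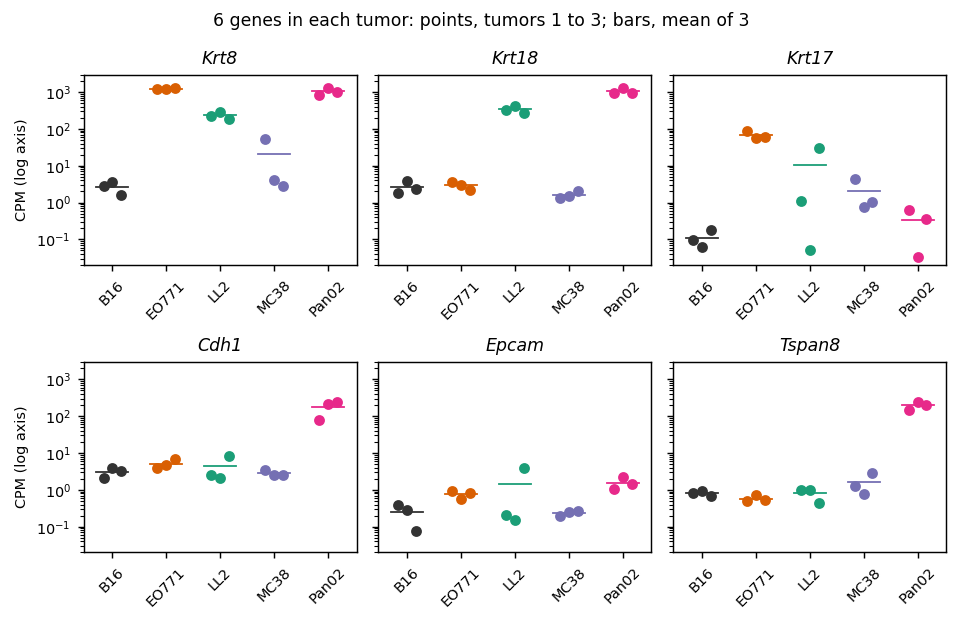
Level of 6 genes in each tumor (CPM, log axis), with points for tumors 1 to 3 of each model and a bar for their mean. Krt8 is high in EO771, LL2 and Pan02 but Krt18 only in the last 2 of these, Krt17 and Epcam show LL2 tumor 3 apart from the other LL2 tumors, and Cdh1 and Tspan8 are high in Pan02 alone.

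Among adhesion genes, Cdh1 was 80.0, 210.3 and 237 CPM in the Pan02 tumors and between 2.09 and 8.33 CPM in the other 12, a rise of 5.53 ± 0.31 (log2, edgeR adjusted p = 1.1e-08). Epcam stayed low in the same tumors, at 1.05, 2.19 and 1.47 CPM, below the 3.88 CPM of LL2 tumor 3 and above every other tumor. It was called higher in Pan02 (1.62 ± 0.65, adjusted p = 0.043), but the call was lost when any of 9 libraries was left out singly (1.31 to 1.67), whereas without LL2 tumor 3 it was 2.35 ± 0.32.

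The claudins, the sealing or pore-forming proteins of the tight junction, divided between models. Cldn2, which forms cation pores in leaky epithelia, was 406, 304 and 204 CPM in Pan02 and did not pass 1.31 CPM elsewhere. Cldn3 was 36.6, 21.1 and 17.2 CPM in Pan02 and at most 1.00 CPM elsewhere, and Cldn7 was 8.18, 8.23 and 5.64 CPM against at most 0.344 CPM. These 3 rose in Pan02 by 9.13 ± 0.22, 5.69 ± 0.26 and 5.73 ± 0.30 on the log2 scale, with no overlap. Cldn1 was called as well (2.22 ± 0.34), resting in part on tumor 2 with 5.87 CPM, and was 1.36 ± 0.29 without it. Cldn6, an embryonic claudin, was instead found in MC38, at 3.85, 1.24 and 2.46 CPM against at most 0.188 CPM elsewhere. Its fitted rise of 5.71 ± 0.55 depends on the prior count, since the B16 tumors had 0 counts. Cldn4 and Cldn18 were too low to test, with at most 1.19 CPM in LL2 tumor 3 and 0.719 CPM in MC38 tumor 3.

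Ocln was highest in LL2 (9.38, 5.998 and 10.4 CPM), next in Pan02 (5.08, 7.76 and 3.93 CPM), which overlapped, and it was called higher in LL2 by 2.73 ± 0.39 and in Pan02 by 1.96 ± 0.40 on the log2 scale. Tjp3 (ZO-3), a scaffold beneath the tight junction, ran against the set. It was 12.03, 14.1 and 9.23 CPM in B16 and 5.62, 11.1 and 7.17 CPM in Pan02, and between 1.43 and 3.57 CPM in EO771, LL2 and MC38. It was higher in B16 (1.95 ± 0.24, adjusted p = 9.5e-06) and in Pan02 (1.24 ± 0.25, adjusted p = 0.00071; without Pan02 tumor 2 the fold fell to 0.92).

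Of the desmosome genes, plakoglobin was in every model. Jup was 489, 468 and 320.2 CPM in Pan02, 86.6, 102 and 100.3 CPM in EO771, and between 14.1 and 63.5 CPM in the other 9 tumors. It rose in Pan02 by 3.22 ± 0.20 and fell in LL2 by 1.88 ± 0.26 on the log2 scale. Jup also sits in adherens junctions, where it binds cadherins. Pkp3 was highest in EO771 (48.5, 49.9 and 43.5 CPM), then Pan02 (35.03, 36.1 and 21.5 CPM), with no overlap, and it was lowest in B16 (0.982, 2.27 and 2.05 CPM). Pkp1 was 8.71, 16.3 and 12.7 CPM in EO771 and 10.3, 2.80 and 11.2 CPM in Pan02, which overlapped. It was called in both (2.56 ± 0.64 and 1.78 ± 0.66), the call in Pan02 being lost without B16 tumor 2, Pan02 tumor 1 or Pan02 tumor 3 (1.49 to 1.65). Without LL2 tumor 3 the changes were 3.18 ± 0.44 and 2.39 ± 0.45. The cadherins of the desmosome, Dsg2 and Dsc2, were at or under 1.16 CPM in all tumors, and Dsp was at or under 4.62 CPM outside LL2 tumor 3.

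The regulators differed in which model was highest. Ehf, an epithelial ETS factor, was 183, 98.4 and 27.6 CPM in Pan02 and no more than 0.491 CPM elsewhere. Elf3, another, was 12.2, 36.2 and 27.0 CPM in Pan02, 6.49, 6.11 and 7.06 CPM in EO771, 4.26, 6.21 and 4.01 CPM in MC38, 1.16, 0.704 and 1.06 CPM in LL2, and at most 0.0622 CPM in B16. Elf3 was called higher in Pan02 (4.49 ± 0.26), EO771 (2.07 ± 0.29) and MC38 (1.52 ± 0.30). The splicing regulator Esrp2 rose in Pan02 by 2.86 ± 0.27 (4.62, 4.69 and 4.11 CPM, at most 1.53 elsewhere). Its paralog Esrp1 was highest in MC38 at 1.25, 0.670 and 0.513 CPM and had reads in 1 Pan02 tumor only (0.0489 CPM).

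Grhl2, a grainyhead factor known to maintain Cdh1 and claudin genes, was lowest in the tumors with the most Cdh1. It was 0, 0.0337 and 0.06003 CPM in Pan02, against 0.156 to 1.05 CPM in the other 12, a fall of 3.50 ± 0.59 on the log2 scale (edgeR adjusted p = 0.00017), or of 2.91 ± 0.60 without Pan02 tumor 1. It was low in absolute level everywhere, with a highest value of 1.05 CPM in EO771 tumor 3. Its paralog Grhl3 was too low to test, and was 1.15, 0.169 and 0.690 CPM in Pan02 against at most 0.200 CPM elsewhere.

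The zinc-finger factors Ovol1 and Ovol2, known to hold cells in an epithelial state, each marked another model. Ovol1 was 9.98, 5.52 and 4.18 CPM in EO771 and at most 1.71 CPM elsewhere, a rise of 3.50 ± 0.30. Ovol2 was 11.2, 12.1 and 9.96 CPM in MC38 and at most 0.720 CPM elsewhere, a rise of 5.99 ± 0.39 (adjusted p = 7.5e-08). The counting did not use strand, and 22.0% of the Ovol1 exon bases and 17.0% of the Ovol2 exon bases overlap exons of other genes, so these reads cannot be told apart from those of the overlapping genes. Elf5, an ETS factor of the mammary gland, had 0 counts in all EO771 tumors and was 0.442, 0.653 and 0.823 CPM in B16, and it was too low to test.

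Genes of the cell surface and its proteases completed the Pan02 pattern. Spint2 and Spint1 encode inhibitors of membrane serine proteases such as matriptase (St14) and prostasin (Prss8). Spint2 was 150.2, 299 and 277 CPM in Pan02 against 2.01 to 9.17 CPM elsewhere, and Spint1 was 44.1, 16.2 and 15.97 CPM against 1.77 to 8.63 CPM. Prss8 was 5.79, 5.53 and 3.30 CPM against at most 0.847 CPM. The 3 rose by 5.99 ± 0.23, 2.54 ± 0.32 and 3.46 ± 0.22 on the log2 scale, Spint1 by 1.86 ± 0.30 without Pan02 tumor 1. St14 did not follow, at 1.39, 4.86 and 4.23 CPM in Pan02, within the 0.408 to 4.16 CPM range of the others apart from its 2 higher tumors, and was not called (0.49 ± 0.52, adjusted p = 0.43). Tspan8, a tetraspanin of digestive epithelia, was 151, 236 and 205 CPM in Pan02 and at most 2.94 CPM elsewhere (7.77 ± 0.23). Muc1 was at most 2.66 CPM (1.20 ± 0.30 in Pan02, 0.94 without Pan02 tumor 2), and Rab25 at most 0.470 CPM.

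The 3 Pan02 tumors were not alike in level. Of the 18 genes with a mean of at least 5 CPM there, tumor 2 was highest for 11, tumor 1 for 5 and tumor 3 for 2. The ratio of the highest to the lowest Pan02 tumor had a median of 1.98 over these genes, from 1.44 for Krt18 to 6.63 for Ehf. Ehf, Cldn2, Cldn3 and Spint1 were highest in tumor 1, while Cdh1 was lowest in it. The corresponding median was 1.40 over 10 genes in EO771 and 2.35 over 11 genes in LL2.

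In EO771 tumors 8 of the 36 genes were higher (9.71% of all tested genes) and 11 lower (13.7%). Beside Krt17, Krt8 and Ovol1, the higher genes were Pkp1, Krt14, Pkp3, Elf3 and Grhl2. The lower genes were led by Krt18, Cldn7 (-3.11 ± 0.63) and Krt19 (-3.06 ± 0.53, or -4.13 ± 0.70 without EO771 tumor 1). EO771 thus differed within roles: 1 of 6 simple keratins was higher and 3 lower, 0 of 9 adhesion genes were higher and 4 lower, and 2 of 4 desmosome genes were higher. In MC38 tumors 5 were higher (11.2%) and 12 lower (8.24%). Of the 5, 4 were regulators (Ovol2, Esrp1, Elf3 and Grhl2, at 5.99 ± 0.39, 3.28 ± 0.71, 1.52 ± 0.30 and 1.24 ± 0.36) and 1 was Cldn6. The call of Grhl2 was lost without MC38 tumor 2 (1.11 ± 0.44). The lower ones were led by Krt18 (-4.66 ± 0.28), Krt19 (-3.35 ± 0.52, or -4.21 ± 0.65 without MC38 tumor 1) and Ehf (-3.28 ± 1.21, a call lost when any of 7 libraries was left out singly).

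B16 melanoma tumors had the lowest levels. Against the mean of the other models 21 of the 36 genes were lower, against 19.6% of all tested genes, and 2 were higher, Tjp3 and Grhl2, against 13.1%. The median was -1.91 (-1.77 with the 3 genes at 0 in a model set at 3 counts), beside -0.03 over all tested genes. All 6 simple keratins were lower. The largest falls were those of Krt14 (-7.12 ± 2.18), Elf3 (-6.71 ± 0.55) and Krt8 (-6.71 ± 0.93), and that of Krt14 lost its call without B16 tumor 3 (adjusted p = 0.051), and was -9.06 ± 3.50 without B16 tumor 2 and -5.92 ± 1.31 without LL2 tumor 3. Grhl2 was 0.442, 0.373 and 0.773 CPM in B16, overlapping the EO771 and MC38 tumors, and its call (1.03 ± 0.38, adjusted p = 0.029) was lost without 1 of 5 libraries, B16 tumor 1 (1.10), B16 tumor 3 (0.62), LL2 tumor 2 (0.96), Pan02 tumor 1 (0.88) or EO771 tumor 1 (0.99).

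Since Pan02 carried most of the high values, EO771, LL2 and MC38 were also set against B16 alone. Of the 36 genes, 16 were higher in these 3 carcinoma models (17.9% of all tested genes) and 1, Tjp3, was lower (-2.41 ± 0.25, background 13.8%). Krt14 (7.05 ± 2.21), Krt17 (6.39 ± 1.64) and Krt8 (6.07 ± 0.91) led. Without MC38 tumor 1 Krt8 was 5.22 ± 0.29, and without LL2 tumor 3 Krt14 was 5.45 ± 1.36 and Krt17 4.97 ± 0.94. Without B16 tumor 2 Krt14 was 8.99 ± 3.53, and without B16 tumor 3 Krt17 was 7.08 ± 2.29 and Krt14 lost its call (adjusted p = 0.056). The count of higher genes ran from 10 to 18 with 1 library left out. Comparisons of one model with the rest share their samples, so their calls are not independent of each other.

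Genes outside the set were read to see how far the Pan02 pattern went. Of 40 further epithelial genes, chosen with earlier results of these data known, 34 were tested. In Pan02 28 were higher (18.8% of all tested genes) and 0 lower (7.93%), with a median log2 fold change of 2.75. The largest were Trp63, the p63 factor of basal epithelium (7.49 ± 0.56), Ppl, periplakin (6.60 ± 0.31), and Cdcp1 (6.16 ± 0.39). Trp63 was 55.0, 24.4 and 13.8 CPM in Pan02 and at most 1.85 CPM elsewhere, although the basal keratins Krt5 and Krt14 were not called there. The 4 tested basal keratins had a median log2 fold change of 2.36 in Pan02, or 1.82 with those at 0 in a model set at 3 counts. The tumors compared included LL2 tumor 3, at 48.3 CPM of Krt5 and 33.4 CPM of Krt14. In EO771 6 of the 34 were higher (9.71% of all tested genes) and 14 lower (13.7%), and in LL2 3 (8.51%) and 6 (8.29%). The counts were 4 (11.2%) and 7 (8.24%) in MC38, and 5 (13.1%) and 13 (19.6%) in B16. The counts of higher genes in LL2, MC38 and B16 were close to the background.

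Markers of other tissues were also read, beside 18.8% of all tested genes called higher in Pan02 and 7.93% called lower. All 10 fibroblast genes were higher in Pan02 (Col1a1 by 3.77 ± 0.40), with a summed level of 45158 to 50796 CPM against 407 to 13619 CPM in the other tumors. Of 8 mesothelial genes 4 were tested and 2 were higher: Msln (5.72 ± 0.22; 205, 569.9 and 487 CPM) and Rspo1 (1.76 ± 0.48). In MC38 2 of the 4 were higher as well. The defining mesothelial genes Upk3b and Calb2 were at or under 0.300 CPM in Pan02, and Wt1 was at 0.660, 0.472 and 4.50 CPM. Of the epidermal genes 4 of 14 were tested and 3 were higher (Trp63, Lor at 2.98 ± 0.39, and Krt10 at 2.47 ± 0.29), with summed levels of 34.4 to 67.0 CPM in Pan02 and 116 to 182 CPM in EO771, where Sbsn made up most (115, 145 and 181 CPM). Of 6 skeletal muscle genes 3 were higher in Pan02 (Myh4 by 3.23 ± 1.03), with sums of 38.8 to 874 CPM there and up to 3132 CPM in MC38. In MC38 all 6 were higher, and in LL2 3. Of 10 hair follicle genes 2 were tested and neither was called in Pan02, and their sum was 1.69 to 3.09 CPM there and reached 47.7 CPM in 1 LL2 tumor. The part of these tissues in the result was not tested.

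Of 8 leukocyte genes 2 were higher in Pan02 (Csf1r by 1.60 ± 0.28 and Cd79a by 1.40 ± 0.38), of 7 endothelial genes 1 (Tek by 1.05 ± 0.30), and of 5 adipocyte genes 0. With 18.8% of all tested genes higher there, the leukocyte and endothelial counts were close to the background. All 8 melanocyte genes were lower in Pan02 (Gpr143 by -5.51 ± 1.24), against 7.93% of all tested genes. Also lower were 6 in EO771 (13.7%), 7 in LL2 (8.29%) and 7 in MC38 (8.24%), B16 being in each comparison. The melanocyte sum was 22828 to 28440 CPM in B16 and 59.3 CPM or less outside it, so the B16 tumors carried their defining markers.

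The keratin and claudin families held further genes that the set leaves out. Of 55 keratin genes 17 were tested, 10 of them in the set, and of 25 claudin genes 11 were tested, 5 of them in the set. Among the 7 tested keratins outside the set, 6 were higher in Pan02 (18.8% of all tested genes), 2 in LL2 (8.51%) and 1 in MC38 (11.2%). In EO771 1, Krt16, was higher (9.71%) and 2 lower (13.7%), and in B16 4 were lower (19.6%). Of the 6 tested claudins outside the set, 3 were higher in EO771, 3 in MC38 and 2 in Pan02. Lower were 4 in B16, 2 in LL2 (8.29%) and 1 in Pan02 (7.93%). A gene can be called in more than 1 model. Krt16, whose gene lies beside Krt14 and Krt17, was 28.0, 45.04 and 47.9 CPM in EO771 and at most 3.32 CPM elsewhere, 5.93 ± 0.59 above the mean of the other models. Krt76, a keratin of the palate, was 1.88, 5.40 and 30.4 CPM in Pan02 and at most 0.218 CPM elsewhere. Cldn9 was 11.7, 11.5 and 13.8 CPM in EO771 and 8.38, 10.3 and 9.003 CPM in MC38, and reached 0.780 CPM at most in B16, LL2 and Pan02. Krt80 (4.22 to 29.5 CPM) and Cldn12 (18.8 to 103 CPM) had reads in all 15 tumors.

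**Figure D4:**
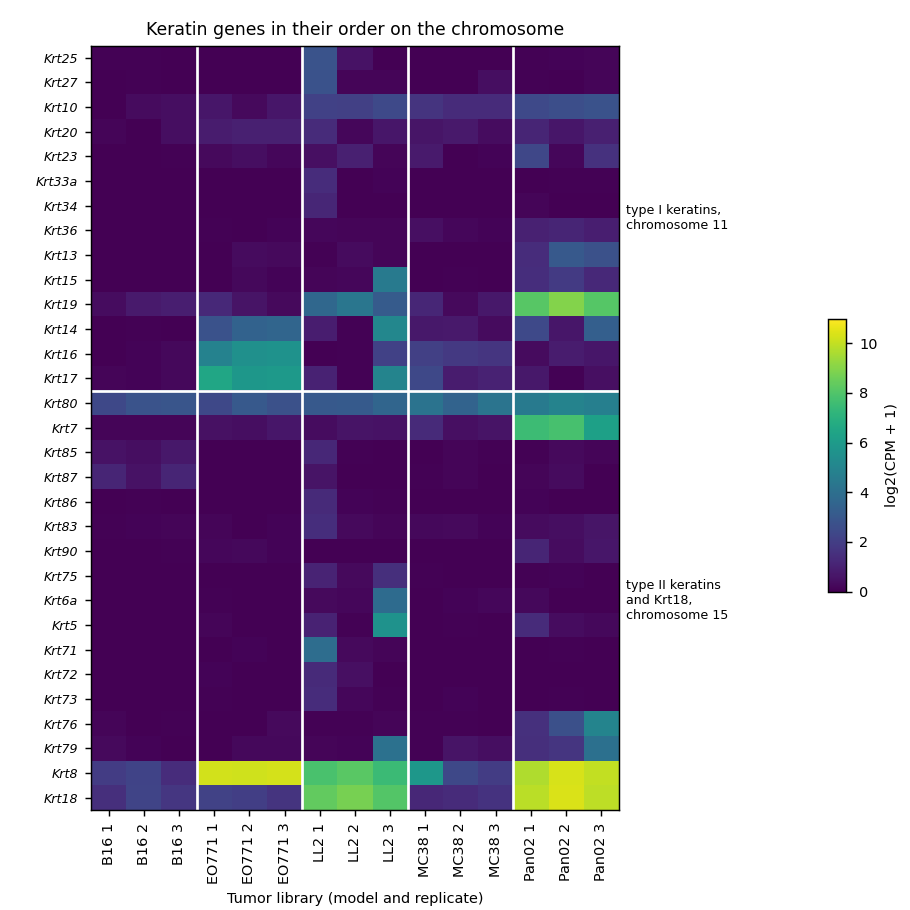
Level of the 31 keratin genes of the clusters on chromosomes 11 and 15 that reached 1 CPM in any tumor, in their order along the chromosome (rows), in each tumor (columns), as log2(CPM + 1). Krt8, Krt18 and Krt7 lie in 1 cluster, and the EO771 columns show Krt17, Krt16 and Krt14, which neighbour each other on chromosome 11.

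The sorted CAFs were read for the same 44 genes, as RPKM (reads scaled by transcript length and library depth). Of the 44 genes, 24 reached 1 RPKM in at least 2 of the 8 libraries and were tested on log2(RPKM + 1) with limma, among 13598 genes. That scale understates the change of low genes. A gene could pass through the 2 libraries of 1 model alone, which set in advance the direction of its change there. This held for Tspan8, Cldn2, Ehf, Cdh1 and Spint1 in Pan02, for Krt17 and Ovol1 in EO771, and for Ovol2 in MC38. The 4 models differed in 23 of the 24 genes by adjusted p (not in Cldn4), against 80.4% of all tested genes.

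In Pan02 CAFs many of the genes of Pan02 tumors had high levels. Tspan8 was 214 and 233 RPKM in the Pan02 libraries and at most 0.208 RPKM in the other 6. Cldn2 (64.5 and 84.2 RPKM), Ehf (23.0 and 26.0 RPKM), Krt7 (49.5 and 49.5 RPKM), Cdh1 (14.1 and 10.54 RPKM) and Spint2 (55.5 and 70.3 RPKM) were also far above the other libraries, whose highest values were 0.049, 0.111, 2.55, 0.621 and 4.345 RPKM. Of the 24 genes 17 were higher in Pan02 CAFs (27.1% of all tested genes) and 2 lower (Krt17 and Ovol2, against 26.5%). The 17 include Tspan8, Cldn2, Ehf, Cdh1 and Spint1, which passed the filter through Pan02 alone, so their direction was fixed beforehand. The largest changes were those of Tspan8 (7.63 ± 0.12), Cldn2 (6.18 ± 0.13) and Krt18 (5.94 ± 0.24) on the log2(RPKM + 1) scale (SE, limma). Epcam (2.08 and 0.764 RPKM) and Cldn4 (4.13 and 0.804 RPKM) differed between the Pan02 libraries and were not called. The median was 2.07 over the 24 genes and 0.00 over all tested genes.

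The CAFs of the other models repeated single features of their tumors. In EO771 CAFs Krt8 was 492 and 495 RPKM and Krt18 0.729 and 1.40 RPKM, so that Krt8 exceeded Krt18 675 and 354 times per base, and Krt17 was 48.2 and 44.5 RPKM. Of the 24 genes 5 were higher there (24.5%), led by Krt17 (5.45 ± 0.12), Krt8 (3.74 ± 0.14) and Krt14 (1.69 ± 0.30), and 16 were lower (27.9%), led by Krt18 (-4.27 ± 0.24). In LL2 CAFs Krt8 (84.2 and 90.5 RPKM) and Krt18 (97.2 and 101 RPKM) were present together, with Krt19 at 15.9 and 15.5 RPKM. There 4 were higher (14.7%; Krt18 by 3.22 ± 0.24, Krt19 by 1.03 ± 0.32, Epcam by 1.03 ± 0.21 and Ocln by 0.44 ± 0.12) and 12 lower (18.3%). The calls of Krt19, Epcam and Ocln were lost when either LL2 library was left out (adjusted p = 0.068 to 0.21). The basal keratins Krt5 and Krt15 of LL2 tumor 3 were at or under 0.547 RPKM in LL2 CAFs.

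In MC38 CAFs 1 gene was higher (28.6%) and 19 lower (31.3%). The higher one was Ovol2, at 23.5 and 31.9 RPKM against at most 0.695 RPKM in the other libraries (4.63 ± 0.18). It was not tested when either MC38 library was left out, since the filter asks for 2 libraries. Krt8 was 0.274 and 0.241 RPKM there (-7.75 ± 0.14 against the mean of the other 3 models), Krt18 0.979 and 0.116 RPKM, and Krt19 2.16 and 0.829 RPKM.

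Levels in CAFs were set beside those of tumors of the same model, with no test because the tables were normalized separately. For this both were expressed as RPKM over the same transcripts with the depth taken as the reads counted over genes, so that the CAF values here are higher than the deposited RPKM given above. Of the 44 genes, 23 had a mean of at least 1 RPKM in Pan02 tumors, and of these 19 also had it in Pan02 CAFs, with a median ratio of CAF to tumor of 0.625. The corresponding counts were 10 of 12 in EO771 (ratio 0.702), 6 of 13 in LL2 (0.426) and 5 of 11 in MC38 (0.321). Krt8 had ratios of 1.02 in Pan02, 0.823 in EO771 and 0.807 in LL2, and 0.0280 in MC38. Tspan8 (2.06 in Pan02) and Ovol2 (4.04 in MC38) were higher in CAFs than in tumors, whereas Cdh1 was lower (0.395 in Pan02). LL2 tumors had 7.41 RPKM of Krt5, from tumor 3, and LL2 CAFs 0.503 RPKM on that scale.

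The markers of the sort moved unequally. Fap itself was 17.6 times higher in CAFs than in tumors in EO771, 10.9 times in LL2 and 5.37 times in MC38, but 0.806 times as high in Pan02. Col1a1 followed the same order, at 9.62, 7.47, 2.56 and 0.363. The leukocyte marker Ptprc (CD45) was low in all, with ratios of 0.0777, 0.00168, 0.00313 and 0.00753. The summed fibroblast markers were 2485 to 4085 RPKM in Pan02 CAFs and 1619 to 7031 RPKM in MC38 CAFs, below the 7260 to 10534 RPKM of LL2 and EO771. The Pan02 CAF libraries held the most of these epithelial genes, and had no more Fap or Col1a1 RNA than whole Pan02 tumors. The tumor side of these ratios also differed between models. The fibroblast genes summed to 45158 to 50796 CPM in Pan02 tumors, against 407 to 13619 CPM in the other tumors. Of the further epithelial genes 20 of 22 tested were higher (27.1% of all tested genes) and 1 lower (26.5%) in Pan02 CAFs, and Msln was 131 and 142 RPKM. Whether these reads came from FAP+ cells or from cancer cells in the sort was not tested.

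**Figure D5:**
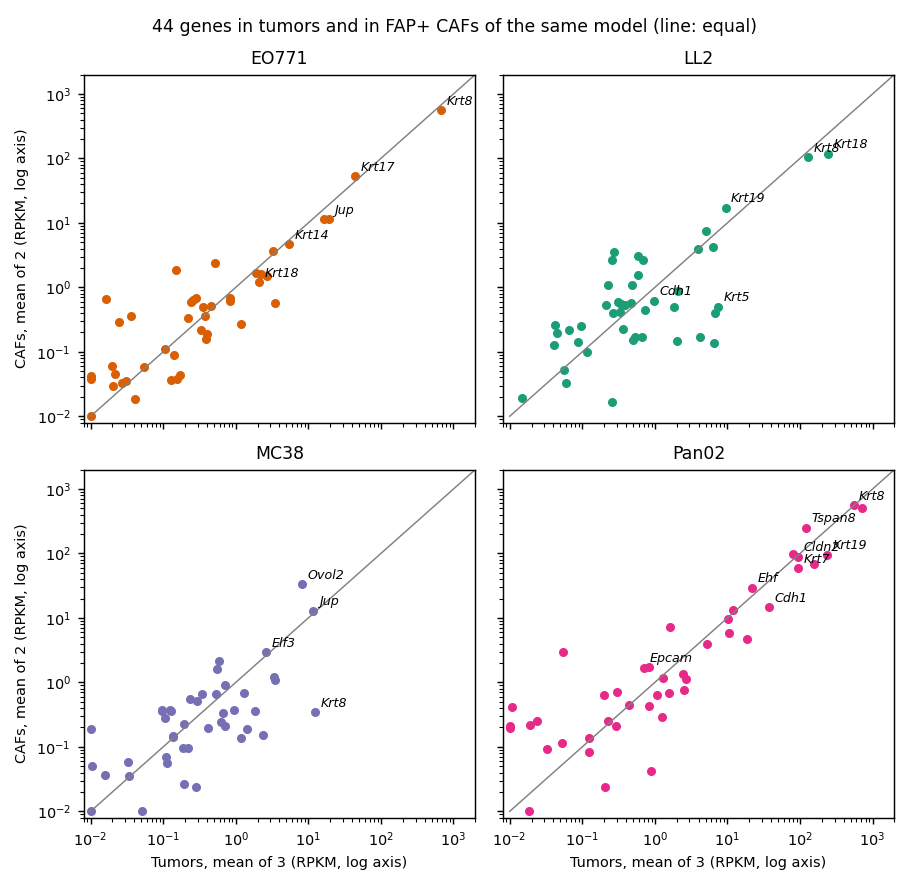
Mean level of each of the 44 genes in tumors (x axis, 3 libraries) and in CAFs (y axis, 2 libraries) of the same model, in RPKM on log axes, with a line of equal level and values under 0.01 drawn at 0.01. In Pan02 and EO771 the high genes lie near the line, in LL2 Krt5 lies far under it and in MC38 Ovol2 lies above it.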

How the data were processed

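Whole tumor fragments and sorted CAFs were sequenced as unstranded, poly(A)-selected libraries. Per the submitters' processing notes and the methods of the study, reads were aligned with STAR 2.5.0c to mm10 and counted over RefSeq transcripts with HOMER. The tumor table was deposited by the authors in the unit of expected counts per transcript in steps of 0.5, and the CAF table as RPKM. The tumor table is named as normalized, but its steps of 0.5 and unequal sums are those of raw counts, and it was read as such. Both tables held 2 transcripts without a gene name, which were left out together with 5 columns of CT26 samples.

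Counts of tumors were made whole by rounding up, 1 transcript was kept per symbol (the largest mean), and low genes were removed with filterByExpr. The edgeR 4.0.16 quasi-likelihood test was run with TMM scaling over all 15 tumors and Benjamini-Hochberg adjustment over all 15722 tested genes. CPM are counts over the TMM-scaled library size. CAF values were tested with limma 3.58.1 (variance trend) on log2(RPKM + 1), for genes at 1 RPKM or more in at least 2 libraries, by adjusted p alone. Total counts were 10035173 to 21946486 per tumor (median 16541399). The steps of the CAF values gave back 6223624.5 to 19527617 counts over genes per library, with 99.6% to 100.0% of low values within 0.1 of a step.

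The members and the marker lists (other epithelial, epidermis, hair follicle, mesothelium, fibroblast, leukocyte, endothelium, melanocyte, skeletal muscle and adipocyte) were chosen with earlier results of these data known. Named with values in every sample were the 3 genes of each role with the largest mean CPM, those called against most of their role, and the 3 largest called changes per model and list. Genes named beyond this rule were chosen after their values were seen. Data were also simulated for the Pan02 tumor contrast on 15417 genes, with the same spread for every gene. Changes were given only to genes above a low level. Of the 200 genes given a change, edgeR found 157, with 2 false calls (39 of 82 at 2-fold, 54 of 54 at 4-fold, 64 of 64 at 8-fold). These counts do not cover genes near the floor or genes with wide spread between replicates, such as Krt5 in LL2. R 4.3.3, DESeq2 1.42.0, Python 3.11.15, pandas 2.3.3, scipy 1.17.1 and matplotlib 3.10.9 were also used. Alternatives covered the test, the scaling, the filter, the transcript per symbol, the fold threshold, the pseudocount and each library left out in turn. The fit on recovered CAF reads and the Krt8 to Krt18 comparison were added after seeing the data.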

Additional observations from a re-analysis of the deposited data

How the results depend on the processing

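For the 3 largest called changes in each direction per model, none changed direction under the alternatives run, with 880 values on the same side of the threshold and 26 no longer past it. Genes not tested under an alternative are left out of these values. In CAFs this held for Tspan8 and Cldn2 without either Pan02 library, Krt17 without either EO771 library, and Ovol2 without either MC38 library. Outside the 3 largest changes, Krt14 and Krt17 turned from higher to lower in LL2 tumors, without a call, when LL2 tumor 3 was left out (-1.14 and -1.63). Of the counts of called genes, 362 stayed within 1.5 times the reported count and 47 did not. With DESeq2 the genes higher in B16 fell from 2 to 1 and those lower in Pan02 rose from 1 to 2. Without a filter on low counts, 3 rather than 1 were lower in the 3 carcinoma models than in B16. With a pseudocount of 0.1, 7 rather than 12 were lower in LL2 CAFs, and without a filter on low values 3 rather than 1 were higher in MC38 CAFs. With edgeR on the CAF reads recovered from the RPKM steps, chosen after seeing the data, 40 of the 44 genes were tested. Then 8 rather than 5 were higher in EO771 CAFs, 7 rather than 4 higher and 5 rather than 12 lower in LL2 CAFs, and 2 rather than 1 higher in MC38 CAFs. It called 12035 of 15519 genes as differing among the CAF models. The cause was not tested.

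With 1 library left out, 38 to 40 of the 44 genes were tested in tumors and 19 to 24 in CAFs. In tumors 34 to 39 then differed among the 5 models and 19 to 29 among the 4 other than Pan02. The higher and lower counts were 1 to 4 and 18 to 25 in B16, 7 to 10 and 9 to 13 in EO771, 4 to 11 and 5 to 13 in LL2, 5 to 5 and 9 to 14 in MC38, 22 to 28 and 1 to 3 in Pan02, and 10 to 18 and 1 to 3 in the 3 carcinoma models against B16. In CAFs, 19 to 23 differed. The counts were 3 to 5 and 9 to 15 in EO771, 1 to 5 and 7 to 13 in LL2, 0 to 2 and 14 to 20 in MC38, and 11 to 17 and 1 to 2 in Pan02. There the lone library of a model was assumed to vary like the others.

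The replicate numbers of the tumors are only numbers. Over 30 same-numbered pairs, the correlation of deviations from the model mean ran from -0.17 to 0.26, and 9 exceeded 0.1, so the numbers were not taken as a pairing. With a replicate block in tumors, 1 gene rather than 2 was higher in B16, and every other count stayed within 1.5 times. For CAFs no paired analysis was possible because their columns carry no replicate number that the labels match.

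TMM against total-count scaling moved the median log2 change of all genes by -0.14 in MC38 and 0.11 in Pan02. Genes under 3 counts, or 0.144 to 0.295 CPM by library, are at the limit of depth. With 3 tumors or 2 CAF libraries per model, 1 library can decide a count, as LL2 tumor 3 did for the basal keratins.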
